A study of Homo sapiens with 13 samples.

Results

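Gene bodies of at least 500 kb are described here across eIF4G-bound and total RNA of U2OS cells, a human osteosarcoma line. Members were the rows of the deposited gene table with a length of at least 500 kb, a single genomic copy and a protein-coding annotation, leaving out 1 gene whose symbol starts with KIF. The rule gave 213 of 26454 genes, or 0.805% of the table and 213 of its 18794 single-copy protein-coding genes. No measured value entered the rule, but it was set with earlier results of these data known.

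The study sequenced RNA collected with eIF4G by immunoprecipitation (IP) beside total RNA, in 13 libraries. Cells received a control siRNA with mock treatment, a CDK12 siRNA with mock treatment, or the control siRNA with rapamycin at 50 ng/ml for 24 h, and every siRNA was left on the cells for 48 h. There were 7 IP libraries, 3 of control cells and 2 of each treatment, and 6 of total RNA, 2 of each state. All groups are 1 cell line, the rapamycin groups carry the control siRNA, and no mock IP is among the groups, so that RNA held unspecifically in the IP was not measured. All 4 rapamycin libraries share a number code in their titles that differs from that of the other 9 libraries. The labels do not say what the code marks, and the effects of what it marks and of the drug cannot be told apart below. The labels do not say that replicates came from separate cultures, so every p-value covers only library-to-library spread, which may be technical.

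Most of a gene body of this length is intron, which is transcribed by RNA polymerase II, removed by splicing in the nucleus and degraded. A whole-body value therefore counts mainly unspliced precursor RNA and excised intron, with the short exons of the mature mRNA added. eIF4G is the scaffold of the complex that brings capped, mature mRNA to the ribosome. CDK12 is a kinase of the polymerase's C-terminal domain that is known for its role in elongation through long genes and in the choice of polyadenylation sites, and rapamycin inhibits the growth-regulating kinase complex mTORC1. Many of the longest human genes code for synaptic adhesion proteins and receptors, and several lie at common fragile sites, the chromosome regions that break under replication stress.

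Depth, rounded, ranged from 12900000 to 30600000 tags per library, of which 110000 to 1220000 fell in the members. CDK12 itself had a level of 1.64 and 1.72 FPKM in control total RNA and of 0.706 and 0.707 FPKM after its siRNA. In the IP its level was 0.497, 0.532 and 0.535 FPKM in controls and 0.493 and 0.338 FPKM after the siRNA. The mesenchymal genes VIM, COL1A1, SPARC and FN1 had means of at least 3.22 FPKM in every group, and CD44 and RUNX2 of the same list had group means of 0.807 to 2.91 and of 0.356 to 2.54 FPKM. Haematopoietic CD3E, HBB and SPI1 were at most 0.020 FPKM in any library, while PTPRC of the same list had 0.169, 0.150 and 0.160 FPKM in control IP, 0.114 and 0.125 in CDK12 siRNA IP and at most 0.059 in the other libraries. Of the neuronal markers, RBFOX3 stayed at or under 0.14 FPKM and SYN1 had group means of 1.59 to 13.1 FPKM. Of the epithelial markers, CDH1 stayed at or under 0.049 FPKM and KRT18 had group means of 19.3 to 84.8 FPKM.

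The start regions of 6 members that changed in total RNA after CDK12 siRNA are shown, because these are the 3 largest rises and falls described below with a mean of at least 0.02 FPKM in 1 of the compared groups (in NPAS3 only after the siRNA), under 10% overlapping signal and an entry in the RefSeq promoter table (build GRCh38.p14). Each sequence is the 100 bases before the RefSeq start, 5′ to 3′ on the gene's own strand, with CG dinucleotides in capitals. Entries were matched by gene symbol alone. The start shown may therefore belong to another transcript and lie away from the start of the measured gene body. IL1RAPL1 (chrX:28587346-28587445, plus strand), NPAS3 (chr14:32938779-32938878, plus strand) and ANK2 (chr4:112705522-112705621, plus strand) rose. DAB1 (chr1:58546727-58546826, minus strand), AFF3 (chr2:100142591-100142690, minus strand) and CEP112 (chr17:65826452-65826551, minus strand) fell.
IL1RAPL1: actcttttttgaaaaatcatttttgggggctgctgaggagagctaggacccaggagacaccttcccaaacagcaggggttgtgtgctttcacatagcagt
NPAS3: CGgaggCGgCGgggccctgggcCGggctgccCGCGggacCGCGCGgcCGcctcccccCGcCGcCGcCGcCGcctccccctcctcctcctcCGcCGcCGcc
ANK2: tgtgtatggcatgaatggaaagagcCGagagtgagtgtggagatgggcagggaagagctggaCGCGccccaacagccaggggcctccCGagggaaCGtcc
DAB1: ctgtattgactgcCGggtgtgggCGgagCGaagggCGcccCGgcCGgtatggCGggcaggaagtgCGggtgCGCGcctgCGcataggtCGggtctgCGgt
AFF3: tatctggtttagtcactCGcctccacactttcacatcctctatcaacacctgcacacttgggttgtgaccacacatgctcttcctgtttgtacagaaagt
CEP112: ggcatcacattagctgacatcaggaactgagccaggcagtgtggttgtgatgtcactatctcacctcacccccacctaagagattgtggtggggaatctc
Both directions of change held RefSeq starts with many CG dinucleotides (18 in NPAS3, 13 in DAB1) and RefSeq starts with none (IL1RAPL1 and CEP112). In the table's 300-base windows, which run from 250 bases before the start to 50 after it, 180 members were matched, 5 of them by an older symbol. Members had a median of 19 CG dinucleotides per window and all 27305 promoters of the table had a median of 14. The TATA-box letters TATAAA, searched on both strands, occurred in 7.78% of the members' windows and in 11.95% of all windows. Such a match is a description of letters, not of a bound site.

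The 213 gene bodies ran from 500.054 to 2320.933 kb with a median of 674.4 kb, against a median of 15.088 kb for all genes of the table. Of these, 40 were longer than 1000 kb, and 118 lie on the plus strand. Chromosome 3 held 24 members, chromosome 7 held 20, and chromosomes 2 and 6 held 18 each. Together the members cover 171 Mb, or 16.7% of the summed length of all single-copy protein-coding genes. The genes just under the limit were CACNA2D1 (497.362 kb), ITPR2 (497.861 kb) and CPQ (498.276 kb), and the shortest members were AFF2 (500.054 kb), CDK14 (500.775 kb) and SPOCK3 (501.041 kb).

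Long gene bodies often hold other genes, whose tags count for both. No other gene of the table overlaps 83 members, and in 169 members the overlapping genes carried under 10% of the member's signal in every library. The other 44 include IQCJ-SCHIP1, a readthrough gene whose overlapping genes, led by SCHIP1, carried up to 78.8% of its signal, and TMEM132D, where the value was up to 89.1%. Among them are also MACROD2 (up to 46.0%), PTPRG (45.6%), LHFPL3 (20.3%), KCNQ5 (20.1%) and CDH13 (17.8%). PCDH9 (up to 17.2%), CNTNAP2 (15.9%), FAM155A (14.9%), ADGRL3 (13.4%) and THSD4 (11.8%) belong there too, and their values below include such tags. NBPF10 and NBPF20 belong to a family of near-identical copies and overlap each other, and PCDH11X has a near copy on the Y chromosome, so that their tags are uncertain.

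Signal was taken as FPKM times length, which is the number of tags in the whole gene body per 1000000 tags of the library, abbreviated RPM. FPKM was deposited with 3 decimals, so its smallest step is 0.001, and the rounding error is at most 0.250 RPM in the shortest member and 1.16 in the longest. In control total RNA the members' median signal was 72.9 RPM. Across the length limit the control means were 196, 116 and 38.1 RPM in CACNA2D1, ITPR2 and CPQ outside it, and 22.8, 747 and 5.51 RPM in AFF2, CDK14 and SPOCK3 inside it. In control total RNA 93 members had at least 100 RPM, 169 at least 10, and 30 under 5.

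Per length, DLG2, which codes for a scaffold protein of the postsynaptic density, had the highest level in control total RNA, with 4.90 and 5.56 FPKM. The adhesion genes TENM2 (3.37 and 3.40 FPKM) and NTM (2.83 and 2.79 FPKM) followed, and the 2 libraries of each kept these 3 apart. Then came CDK14, a cyclin-dependent kinase (1.449 and 1.535 FPKM), GPC6, a glypican of the cell surface (1.452 and 1.504 FPKM), the teneurin TENM3 (1.43 in both) and the receptor phosphatase gene PTPRG (1.38 in both). The libraries of CDK14 and GPC6 overlapped, so that their order is not settled. The median member had 0.120 FPKM. DLG2 alone gave 21.1% of all tags in members in control total RNA, and the 10 members with most tags gave 43.2%.

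The members' share of all tags in gene bodies differed between RNA fractions in every cell state. It was 6.33% and 6.64% in control total RNA, and 0.876%, 0.959% and 0.955% in control IP. After CDK12 siRNA it was 7.06% and 7.52% in total RNA and 0.888% and 0.866% in the IP. With rapamycin it was 3.38% and 3.86% in total RNA and 1.62% and 2.61% in the IP. The groups did not overlap between total RNA and IP in any state, the CDK12 siRNA total libraries were above both controls, the rapamycin total libraries were below both, and the rapamycin IP libraries were above all 5 other IP libraries. The CDK12 siRNA and control IP libraries overlapped. The shares are given as a description, since a two-sided exact permutation test cannot go below p = 0.333 with 2 libraries against 2 or p = 0.2 with 3 against 2. Without DLG2 the group means in control, siRNA and drug-treated cells were 5.12%, 5.95% and 3.35% of total RNA tags and 0.872%, 0.831% and 1.79% of IP tags.

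**Figure D1:**
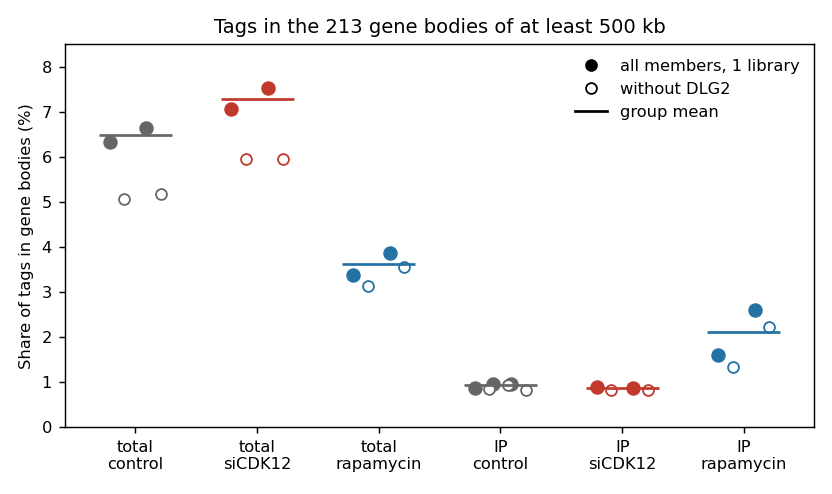
Tags in the 213 long gene bodies as a percentage of tags in all gene bodies (y axis), for each library of the 6 groups (x axis). Filled points are libraries with all members, open points are the same libraries without DLG2, and lines are group means. Total RNA libraries range from 3.38% to 7.52% and IP libraries from 0.866% to 2.61%.

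Long gene bodies were depleted from the IP of control cells. Of the 213 members, 186 were lower in the IP than in total RNA and 11 were higher (limma, adjusted p under 0.05), where 41.2% of all 17374 genes tested were lower and 36.9% higher (78.1% called in either direction). All 213 members passed the filter on low values, which asked for 1 RPM in 2 libraries. The median log2 difference of members was −2.41, against −0.10 over all genes tested, and 133 members were lower by at least 4-fold. DLG2 had 10648 and 12080 RPM in control total RNA and 330, 206 and 1149 in control IP, a log2 difference of −4.53 (SE 0.47, adjusted p = 3.01e-07). The third IP library was well above the others, and all 3 stayed below total RNA. SDK1, which codes for a sidekick adhesion protein, had 1048 and 1051 RPM in total RNA and 47.4, 71.6 and 51.3 in the IP (log2 difference −4.02, SE 0.21, adjusted p = 1.99e-10). SH3RF3, LINGO2 and the glypican gene GPC5 followed with log2 differences of −3.95, −3.91 and −3.86.

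The genes fixed for their place at fragile sites or their length were also lower in control IP, with 1 exception. FHIT, a dinucleotide hydrolase gene at the best-known fragile site, had 199.8 and 219 RPM in total RNA and 16.5, 21.0 and 15.02 in the IP (log2 difference −3.36, SE 0.23, adjusted p = 3.17e-09). IMMP2L, which codes for a subunit of a mitochondrial peptidase, MACROD2, an ADP-ribose hydrolase gene, and EXOC4, a subunit of the exocyst, had log2 differences of −3.03, −3.56 and −2.10, all past the threshold. The exception was DMD, the dystrophin gene, at 2.01 and 4.02 RPM in total RNA and 18.1, 18.1 and 16.1 in the IP (log2 difference 2.60, SE 0.24, adjusted p = 8.67e-08). DMD spans 2009 kb, and its deposited values were only 0.001 and 0.002 FPKM in total RNA and 0.008 to 0.009 in the IP, so that this difference rests on a few rounding steps.

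Few members were enriched in control IP. FAM19A1, which codes for a secreted chemokine-like protein, had 3.25 and 2.17 RPM in total RNA and 15.7, 12.99 and 15.2 in the IP (log2 difference 2.45). CCSER1 stood at 2.95 RPM in both total RNA libraries and at 14.7, 10.3 and 8.85 in the IP (log2 difference 1.93), again a matter of a few rounding steps. THSD4, which codes for a matrix protein that binds fibrillin, had 18.6 and 19.3 RPM in total RNA and 52.0, 59.7 and 53.3 in the IP (log2 difference 1.71, SE 0.11, adjusted p = 1.72e-09). These groups did not overlap. NBPF10 was also higher (log2 difference 1.42), within a family whose copies share tags.

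The depletion was present in all 3 cell states and differed in size. After CDK12 siRNA, 199 members were lower and 7 higher in the IP (median −3.002), where 42.2% of all genes were lower and 38.0% higher (80.3% in either direction). With rapamycin, 144 were lower and 6 higher (median −0.82), where 21.9% of all genes were lower and 24.1% higher (46.0% in either direction). Members lower by at least 4-fold numbered 133 in controls, 167 with the CDK12 siRNA and 2 under rapamycin. Without the first rapamycin IP library, 68 members were lower in that state, and without the second rapamycin total RNA library, 86. The tests of whether the differences between IP and total RNA themselves changed with treatment are given below.

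**Figure D2:**
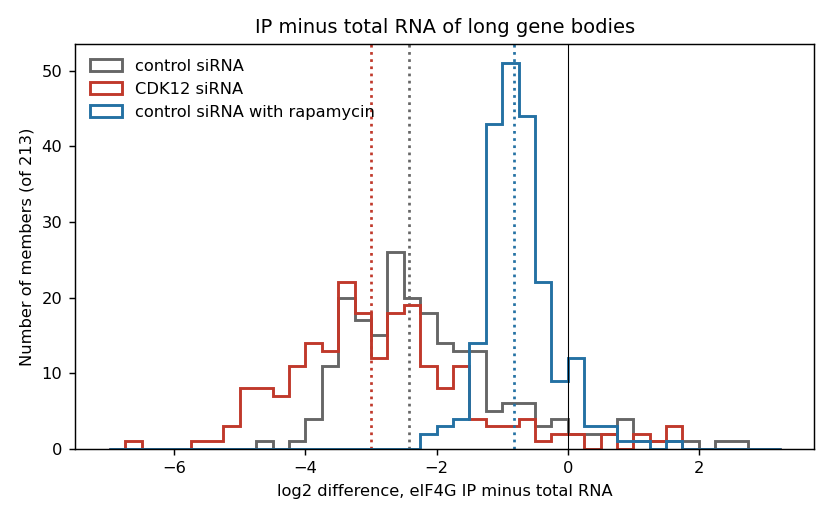
Number of members (y axis, of 213) by log2 difference between eIF4G IP and total RNA (x axis, in equal bins) in the 3 cell states, with dotted lines at the medians. The medians are −2.41 in controls, −3.002 for the CDK12 siRNA and −0.82 for rapamycin.

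In total RNA after CDK12 siRNA, 98 members rose and 28 fell, against 24.9% of all genes tested that rose and 20.4% that fell (45.3% called in either direction). The members' median log2 difference was 0.52, against 0.07 over all genes. The largest rise among named members with under 10% overlapping signal was that of IL1RAPL1, which codes for a synaptic adhesion protein related to the interleukin-1 receptor (hg19 chromosome X, 28605681 to 29974017). It had 31.5 and 28.7 RPM in controls and 252 and 256 after the siRNA, a log2 difference of 3.28 (SE 0.19, adjusted p = 4.36e-09). ANK2, which codes for ankyrin-B, a link between membrane proteins and the cytoskeleton (chromosome 4, 113739239 to 114304896), had 69.6 and 70.1 RPM in controls and 317 in both siRNA libraries, a log2 difference of 2.401 (SE 0.17, adjusted p = 4.58e-08). In both genes the replicates lay close together and the groups far apart.

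TMEM132D had the highest log2 difference, 3.47 (SE 0.19, adjusted p = 2.66e-09), with 4.16 and 3.33 RPM in controls and 39.9 and 39.1 after the siRNA, but genes overlapping it carried much of its signal. NPAS3, which codes for a transcription factor of the basic helix-loop-helix family, had 3.46 in both controls and 30.3 and 29.4 after the siRNA (log2 difference 3.16, SE 0.33, adjusted p = 2.6e-06). FSTL5, with 0.001 to 0.002 FPKM in controls and 0.009 to 0.010 after the siRNA, rested on few rounding steps (log2 difference 2.49). MAGI2, which codes for a membrane-associated scaffold protein, had much higher signal, with 715 and 735 RPM in controls and 2139 and 2158 after the siRNA (log2 difference 1.79, SE 0.29, adjusted p = 0.000179). The cadherin gene CDH13 went from 223 and 233 to 597 and 606 (log2 difference 1.63).

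Among the members that fell, ADGRL3, an adhesion G protein-coupled receptor gene, went from 57.5 and 51.8 RPM in controls to 9.21 and 11.5 after the siRNA (log2 difference −2.13, SE 0.28, adjusted p = 2.43e-05). DAB1, which codes for an adaptor of Reelin signalling, went from 60.1 and 62.6 to 15.03 in both (−1.77, SE 0.25, adjusted p = 4.58e-05). AFF3, which codes for a nuclear protein of the AF4 family, went from 92.7 and 88.2 to 23.4 and 25.7 (−1.64). CEP112, a centrosomal protein gene, went from 233 and 239 to 69.0 and 70.1 (−1.53, SE 0.14, adjusted p = 7.18e-07). In each of these genes the siRNA libraries lay below both controls.

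Several of the most abundant members did not follow the median. TENM2 fell, from 1715 and 1729 RPM to 598 and 573 (log2 difference −1.33, SE 0.16, adjusted p = 1.2e-05). DLG2 had 10648 and 12080 in controls and 9119 and 12662 after the siRNA, with overlapping groups (0.15, SE 0.51, adjusted p = 0.835). NTM had 2730 and 2695 in controls and 1735 and 1724 after the siRNA (−0.42, SE 0.26, adjusted p = 0.209), a difference that did not pass the test although the groups were apart. GPC6 rose from 1715 and 1777 to 2768 and 2769 (0.89, adjusted p = 0.00706), and FHIT from 199.8 and 219 to 333 and 324 (0.88, adjusted p = 0.0106). EXOC4, IMMP2L, MACROD2 and DMD did not pass, with log2 differences of 0.16, 0.37, −0.10 and 0.63.

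**Figure D3:**
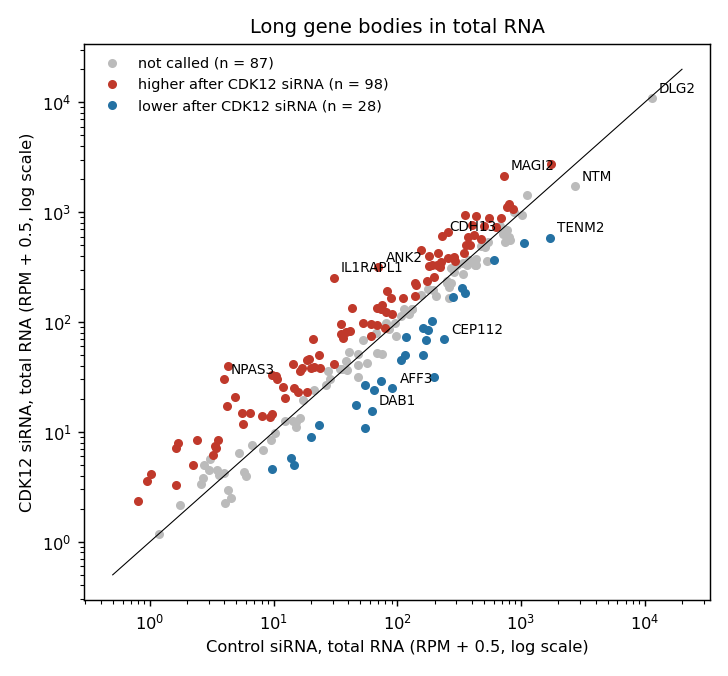
Mean signal of each member in total RNA of control (x axis) and CDK12 siRNA cells (y axis), in RPM plus 0.5 on log scales, with the line of equality. Red points are the 98 members that rose, blue the 28 that fell and grey the 87 not called, and calls come from scaled values, so that points near the line can be called.

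Lists of long genes by role, chosen with earlier results of these data known, held 122 of the 213 members, and a gene may stand in more than one list. Of 44 synaptic and neuronal adhesion genes, 21 rose and 6 fell, with a median log2 difference of 0.61, and NCAM2, a neural cell adhesion gene, rose by 1.46. Of 15 ion channel and transmitter receptor genes, 6 rose and 4 fell (median 0.31), among them the ryanodine receptor gene RYR3, up by 1.37. Of 21 genes of cytoskeleton, polarity and trafficking, 12 rose and 3 fell (median 0.67), and of 22 signalling enzymes and receptors, 11 rose and none fell (median 0.59). Of 10 regulators of transcription or RNA binding, 4 rose and 1 fell (median 0.10), the one that fell being SOX6 (−1.02). Of 7 genes of genome maintenance and cell division, 4 rose and none fell (median 0.46). Of 29 common fragile site genes, 11 rose and 3 fell (median 0.41). The 91 members in no list split into 40 that rose and 13 that fell (median 0.45). Of all 213 members, 46.0% rose and 13.1% fell.

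The counts depended on single libraries and on scaling. Without the first control total RNA library, 65 members rose and 23 fell, without the second siRNA total RNA library 73 rose and 18 fell, and with only the compared libraries in the fit 132 rose and 45 fell. Without scaling between libraries, 70 rose and 36 fell, since the scaling moves every log2 difference in this comparison by 0.23. MALAT1, a nuclear noncoding RNA, had a mean level of 622 FPKM in total RNA of controls and of 895 FPKM after the siRNA, KCNQ1OT1, another, had 0.524 and 0.822 FPKM, and NEAT1, the third, had 64.5 and 106 FPKM. Their part in the members' rise was not tested.

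**Figure D4:**
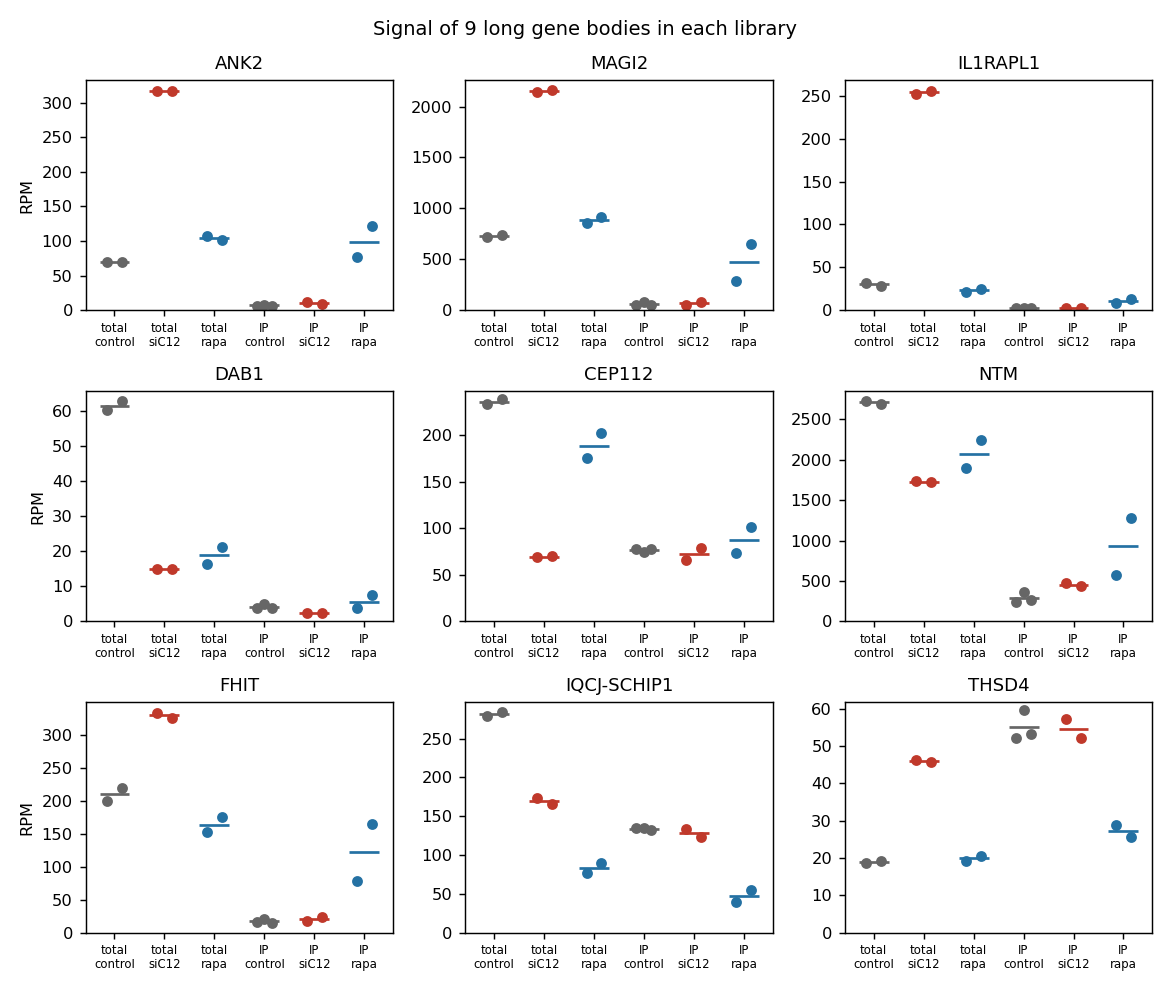
Signal of 9 members in RPM (y axis, from 0, with a scale for each gene) in each library of the 6 groups (x axis, where rapa is rapamycin and siC12 is CDK12 siRNA). Points are libraries and lines are group means. ANK2, MAGI2 and IL1RAPL1 stand highest in CDK12 siRNA total RNA, DAB1 and CEP112 are lower there than in control total RNA, and THSD4 is highest in control and CDK12 siRNA IP.

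In the IP after CDK12 siRNA, few members changed. There 4 were higher and 40 lower (1.88% and 18.8% of members), against 10.1% of all genes tested that were higher and 16.6% lower. In either direction 20.7% of members and 26.7% of all genes were called. The share of members lower was thus near the background, and the share higher was well below it. The median log2 difference was −0.21, against −0.06 over all genes. EXOC6B, which codes for an exocyst subunit, had 70.5, 89.9 and 89.9 RPM in control IP and 47.9 and 49.8 after the siRNA (log2 difference −0.95, SE 0.18, adjusted p = 0.00135). AUTS2, which codes for a nuclear regulator of transcription, had 42.9, 54.7 and 40.1 in controls and 24.2 and 30.4 after the siRNA (−0.92, adjusted p = 0.0196). CNTNAP2 fell by 2.09 on the log2 scale, with deposited values of only 0.005 to 0.007 FPKM in controls and 0.001 to 0.002 after the siRNA. LHFPL3 rose from 18.6, 21.5 and 16.8 to 37.1 and 46.4 (0.93, SE 0.15, adjusted p = 0.00046). PCDH11X and SPOCK1, a proteoglycan gene, were also higher, with log2 differences of 1.23 and 0.61. SPOCK1 and AUTS2 lost their calls in several fits with 1 library left out, SPOCK1 without any one of 4 libraries (the first or second control, or either siRNA library) and AUTS2 without the second control or the second siRNA library.

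This comparison varied with the settings. Without the second control IP library, 4 members were higher and 22 lower, and with only the compared groups in the fit, 2 were higher and 9 lower. Without scaling, 9 were higher and 20 lower, since the scaling moves these log2 differences by −0.19.

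Calls after CDK12 siRNA were then set side by side for total RNA and IP. Of the 98 that rose in total RNA, 2 were higher in the IP, 18 were lower and 78 were not called, against 4, 40 and 169 of all 213 members, so that these shares are near the background. Of the 28 that fell in total RNA, 8 were lower in the IP and 20 were not called. IL1RAPL1 stood at 2.74 RPM in all 5 IP libraries of these conditions, which is 0.002 FPKM. ANK2 had 6.22, 7.92 and 6.79 in control IP and 11.3 and 9.05 after the siRNA, while its total RNA signal rose as described above.

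The difference between both changes was tested directly. The change with CDK12 siRNA was lower in the IP than in total RNA for 94 members and higher for 14, where 22.8% of all genes were lower and 15.7% higher (38.5% in either direction), with a median of −0.77 for members and −0.10 for all genes. IL1RAPL1 had a difference of −3.45 (SE 0.26, adjusted p = 6.63e-07) and ANK2 of −2.07 (SE 0.23, adjusted p = 1.98e-05). CEP112 had a difference of 1.25 (SE 0.19, adjusted p = 0.000202), since it fell in total RNA and did not pass the test in the IP. Without scaling, 60 were lower and 28 higher, and without either control total RNA library or the second siRNA total RNA library 8 were higher.

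In total RNA with rapamycin the direction was the other way, with 115 members lower and 5 higher, against 19.5% of all genes tested that were lower and 15.7% higher (35.2% in either direction). The median log2 difference was −0.67, against −0.05 over all genes. This comparison shares its controls with that of CDK12 siRNA. DLG2 went from 10648 and 12080 RPM to 2157 and 2583 (log2 difference −2.52, SE 0.51, adjusted p = 0.00168). PCDH9, a protocadherin gene, went from 115 and 119 to 17.6 and 19.5 (−2.87, SE 0.14, adjusted p = 3.75e-08). The cadherin gene CDH4 went from 228 and 218 to 60.6 and 71.6 (−2.004, SE 0.17, adjusted p = 1.64e-06), and IQCJ-SCHIP1 from 279 and 285 to 77.0 and 89.4 (−2.01). In each of these genes the rapamycin libraries lay far below both controls.

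Other abundant members were lower by less. TENM2 went from 1715 and 1729 to 719 and 835 (log2 difference −1.41, adjusted p = 2.52e-05), and GPC6 from 1715 and 1777 to 703 and 780 (−1.49, adjusted p = 0.000327). KCNQ5, which codes for a potassium channel subunit, went from 742 and 788 to 248 and 258 (−1.85, SE 0.22, adjusted p = 3.56e-05). NTM, FHIT and IMMP2L did not pass the test, with log2 differences of −0.65, −0.61 and −0.64. MAGI2 had 715 and 735 in controls and 856 and 918 with rapamycin (0.04, adjusted p = 0.937).

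The few rises concerned members with low signal. ELMO1, which codes for a regulator of Rac signalling, went from 31.6 and 38.7 to 73.9 and 85.8 (log2 difference 0.92, adjusted p = 0.0125), and NELL1, a secreted protein gene, from 13.6 and 14.5 to 32.6 and 38.1 (1.05, adjusted p = 0.0357). Both lost the call when some single libraries were left out, NELL1 in 4 such fits and ELMO1 in 2. By role, 23 of 44 adhesion genes were lower and 1 higher (median −0.71), against 54.0% of all 213 members lower and 2.35% higher. Lower were 13 of 21 cytoskeleton, polarity and trafficking genes (median −0.55), 14 of 22 signalling genes (median −0.76) and 15 of 29 fragile site genes (median −0.64). So were 7 of 15 ion channel and transmitter receptor genes (median −0.58) and 5 of 10 regulators of transcription or RNA binding (median −0.75). Of 7 genome maintenance and cell division genes, 6 were lower (median −0.79). Of the lists, only that of adhesion genes held a rise. Only the compared libraries in the fit gave 152 lower and 21 higher. Without the first rapamycin total RNA library 63 members were lower and 2 higher, and without the second control library 69 were lower and 5 higher. Without scaling, 74 were lower and 17 higher, since the scaling moves these log2 differences by −0.25.

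In the IP with rapamycin most members rose. There 136 were higher and 20 lower, against 34.6% of all genes tested that were higher and 31.3% lower (65.9% in either direction), with a median log2 difference of 0.85 against 0.09 over all genes. ANK2 had 6.22, 7.92 and 6.79 RPM in control IP and 76.4 and 122 with rapamycin (log2 difference 3.39, SE 0.16, adjusted p = 2.04e-10). NRG3, which codes for a neuregulin that binds the receptor ERBB4, had 25.6, 44.5 and 25.6 in controls and 269 and 570 with rapamycin (3.33, SE 0.25, adjusted p = 2.26e-08). MAGI2 went from 50.3, 81.9 and 51.7 to 286 and 655 (2.53, SE 0.27, adjusted p = 9e-07). FAM155A, which codes for an auxiliary subunit of the NALCN sodium leak channel, and NLGN1, a neuroligin gene, had log2 differences of 2.67 and 2.51. The second rapamycin library was higher than the first in each of ANK2, NRG3 and MAGI2, and both lay above all controls. Without the first rapamycin IP library 149 members were higher and 13 lower, and without the second 110 were higher and 30 lower.

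Fragile site genes were among the rises, which took in 136 of all 213 members (63.8%), while 9.39% of members were lower. FHIT went from 16.5, 21.0 and 15.02 RPM to 78.1 and 165 (log2 difference 2.36, SE 0.23, adjusted p = 3.54e-07). LPP, which codes for a LIM protein of focal adhesions, rose by 1.77 on the log2 scale (SE 0.14, adjusted p = 2.93e-08), and IMMP2L, MACROD2 and EXOC4 by 1.51, 1.16 and 0.97. In all, 21 of 29 fragile site genes were higher and 4 lower (median 1.16). Of 15 ion channel and transmitter receptor genes 14 were higher (median 1.07), and of 10 regulators of transcription or RNA binding 8 (median 1.23). Of 44 adhesion genes 27 were higher and 5 lower (median 0.75), and of 21 cytoskeleton, polarity and trafficking genes 15 with 1 lower (median 0.85). Of 22 signalling genes 16 were higher and 2 lower (median 1.00), and of 7 genome maintenance and cell division genes 4 were higher (median 0.47). The 91 members in no list had 53 higher and 10 lower (median 0.76).

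Some members fell in the IP with rapamycin. THSD4 went from 52.0, 59.7 and 53.3 to 28.9 and 25.7 RPM (log2 difference −1.32, SE 0.11, adjusted p = 7.16e-08). IQCJ-SCHIP1 went from 134, 134 and 132 to 38.9 and 55.5 (−1.83, SE 0.12, adjusted p = 7.39e-09), within the overlap with SCHIP1. DMD, FAM19A1 and CCSER1 fell by 2.29, 1.68 and 1.53, from the low values given above. CEP112 had 77.9, 74.5 and 77.9 in controls and 72.9 and 101.3 with rapamycin (−0.16, adjusted p = 0.293).

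Levels of nuclear RNAs moved with this comparison, and so did those of cytoplasmic mRNAs. MALAT1 had 98.2, 105 and 119 FPKM in control IP, 110 and 90.3 FPKM after CDK12 siRNA, and 273 and 336 FPKM with rapamycin. NEAT1 had means of 17.9, 37.2 and 73.0 FPKM and KCNQ1OT1 of 0.0237, 0.0255 and 0.131 FPKM in the same order, so that all 3 nuclear RNAs were highest with rapamycin among the IP groups. The rise was not particular to nuclear RNA. Of the cytoplasmic mRNAs set beside them, GAPDH was also higher, with means of 160 FPKM in control IP and 462 FPKM with rapamycin. ACTB (1042 and 758 FPKM) and EEF1A1 (236 and 115 FPKM) were lower with rapamycin. The share of tags in gene bodies fell from 96.4% to 97.4% in control IP to 93.3% and 91.4% with rapamycin. Between control and rapamycin total RNA the means were 622 and 662 FPKM for MALAT1, 64.5 and 110 FPKM for NEAT1 and 0.524 and 0.563 FPKM for KCNQ1OT1. The part of nuclear RNA in the members' rise was not tested.

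The change with rapamycin differed between fractions for most members. It was higher in the IP than in total RNA for 154 members and lower for 8, where 28.5% of all genes were higher and 25.9% lower (54.4% in either direction), with a median of 1.52 for members and 0.11 for all genes. Of the 115 members lower in total RNA, 77 were higher in the IP, 11 lower and 27 not called. Over all 213 members, 63.8% were higher in the IP and 9.39% lower, so that these shares are near the background. DLG2 had the highest difference, 4.98 (SE 0.69, adjusted p = 2.78e-05), with 330, 206 and 1149 RPM in control IP and 2481 and 3510 with rapamycin. ANK2, which did not fall in total RNA (69.6 and 70.1 against 107 and 102), had a difference of 3.07 (SE 0.23, adjusted p = 1.62e-07).

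The members stood at the end of a gradient of gene length rather than apart from shorter genes. Among single-copy protein-coding genes, the median log2 difference in total RNA after CDK12 siRNA was −0.14 for genes under 10 kb, 0.04 from 10 to 50 kb, 0.18 from 50 to 100 kb, 0.23 from 100 to 200 kb, 0.31 from 200 to 500 kb and 0.52 for the members. With rapamycin in total RNA the medians in the same classes were 0.30, 0.04, −0.23, −0.39, −0.59 and −0.67. For IP minus total RNA in control cells they were 1.01, 0.21, −0.50, −1.11, −1.72 and −2.41, and for the IP with rapamycin −0.08, −0.04, 0.08, 0.33, 0.49 and 0.85. Each series moved in 1 direction through all 6 classes. Among the members themselves length had little relation to the change: Spearman's rho across 213 genes was 0.12 for CDK12 siRNA and 0.04 for rapamycin in total RNA, 0.02 for rapamycin in the IP and −0.08 for IP minus total RNA in control cells. These values are across genes of the same libraries and carry no test. In total RNA after CDK12 siRNA the 81 members under 600 kb had a median of 0.46. The next longer classes, up to 1000 kb, had 0.44 and 0.37, and members longer than 1000 kb had 0.89.

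**Figure D5:**
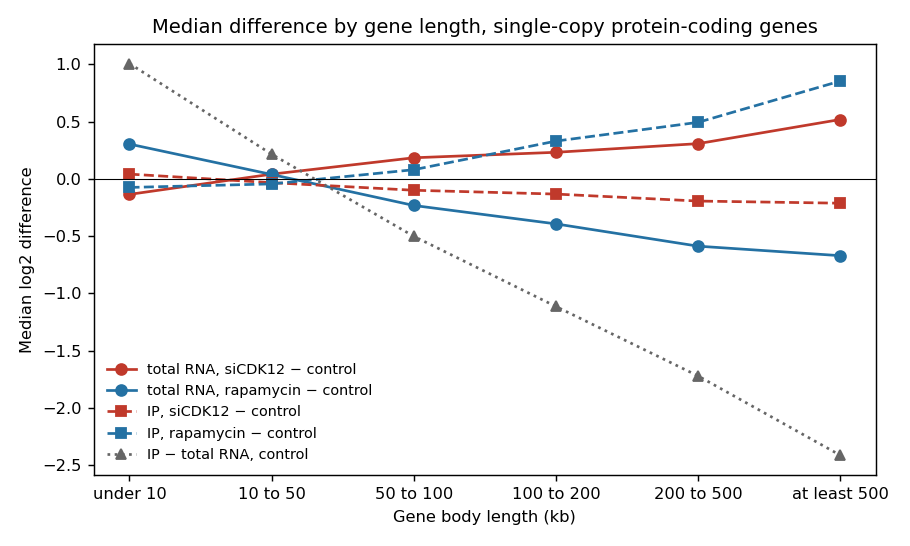
Median log2 difference (y axis) of single-copy protein-coding genes in 6 classes of gene body length in kb (x axis), for 5 comparisons, with a line at 0. The class of at least 500 kb holds the 213 members and has the highest or lowest median of each line, from −2.41 for IP minus total RNA to 0.85 for rapamycin in the IP.

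In the authors' deposited table, the call of CDK12-dependent binding marked 8 of the 213 members and 1114 of all 26454 genes (4.21%). The authors' deposited table marked none of the members for mTORC1-dependent binding, against 3285 genes in all (12.4%), and 1 member each for changed expression with CDK12 siRNA, against 561 genes (2.12%), and with rapamycin, against 640 genes (2.42%).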

How the data were processed

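RNA of U2OS cells was measured in 13 libraries, grouped by the sample titles. The authors deposited FPKM per gene, made with HOMER over whole gene bodies of hg19, per the file headers, and rounded to 3 decimals. The submitters' processing notes list STAR 2.4.0k and FastQC. No source used here gives the strand setting, so tags of antisense genes cannot be told apart. The TRUE and FALSE calls in the authors' deposited table were only counted.

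FPKM times length gave tags per 1000000 (RPM), and the steps between low FPKM values gave each library's depth. FPKM are not counts, so RPM was divided by median-ratio factors of 0.864 to 1.22, and log2(RPM + 0.5) was tested with limma 3.58.1 (lmFit and trended eBayes, R 4.3.3). Genes with at least 1 RPM in at least 2 libraries, 17374 in all, entered 1 fit of 6 group means, with Benjamini-Hochberg adjustment per contrast at 0.05. Log2 differences come from scaled values, while RPM are printed unscaled. The fit was tested on simulated data.

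The members and the role lists were chosen with earlier results of these data known. Genes were named as the 10 members with most signal in control total RNA, the 5 largest called rises and falls per contrast with a mean of at least 5 RPM and no overlap of libraries (for interactions, overlap allowed), up to 4 members of smallest p per list, and FHIT, DMD, MACROD2, IMMP2L and EXOC4. WWOX, fixed with these, was no member and was not analysed here, and the Y-linked member and some other named genes are not reported here. Genes named outside this rule, such as CDK14 and TENM3, were chosen after their values were seen. Promoter sequences are RefSeq's (GRCh38.p14), matched by gene symbol and not by transcript. Of the gene symbols, 28 that had turned into dates were repaired, none of a member. Tables and plots used Python 3.11.15, pandas 2.3.3, numpy 2.4.6, scipy 1.17.1 and matplotlib 3.10.9.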

Additional observations from a re-analysis of the deposited data

Results flagged for a closer look

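The change with CDK12 siRNA differed between IP and total RNA for 108 members in all, by the interaction term of the limma fit. Values below are for members with a mean of at least 5 RPM in a compared group. Among the highest differences, where the change in the IP was above that in total RNA, were 1.72 for ADGRL3, 1.35 for NELL1, 1.30 for FAT3 and 1.29 for AFF3. NELL1 lost this call in 9 of the alternatives tried. FAT3, which codes for a large cadherin, had 76.2 and 69.7 RPM in control total RNA and 29.9 and 26.7 after the siRNA, while its IP libraries had 53.9, 64.8 and 58.8 in controls and 86.6 and 67.0 after the siRNA. The lowest differences were −3.77 for NPAS3, −3.61 for PTPRD, −3.45 for IL1RAPL1, −3.31 for TMEM132D and −3.26 for CNTNAP2. Of these, PTPRD and CNTNAP2 had at most 0.017 FPKM in any library. In the IP of control and CDK12 siRNA cells NPAS3 had only 0.001 to 0.002 FPKM and IL1RAPL1 0.002 FPKM. The IP side of both differences therefore rests on few rounding steps.

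The change with rapamycin differed between IP and total RNA for 162 members by the same term. The highest differences were 4.98 for DLG2, 3.23 for SDK1, 3.21 for SORCS2, 3.07 for ANK2 and 3.03 for KCNQ5. SORCS2, which codes for a sorting receptor, had 4.40, 6.60 and 6.05 RPM in control IP and 31.9 and 43.5 with rapamycin, and 35.2 and 33.0 in control total RNA against 19.8 and 23.7. The lowest differences were −2.48 for DMD, −1.98 for FAM19A1, −1.82 for CCSER1, −1.20 for NBPF10 and −1.14 for THSD4. The effects of what the number code in the titles marks and of the drug cannot be told apart here.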

How the results depend on the processing

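No result reversed. Of 1750 combinations of a called named gene and a setting, 1712 kept their call and 38 lost it. These genes were chosen as the largest called changes of each comparison. The settings also include, for every comparison, fits without a library that was in none of its compared groups. The share kept therefore says little about the calls of the other members. With FPKM + 1 and a filter at 1 FPKM, which only 24 members pass, the members called in total RNA were 16 for CDK12 siRNA and 22 for rapamycin, in the IP 0 and 20, for IP minus total RNA 24, 24 and 22 in control, CDK12 siRNA and rapamycin cells, and for the interactions 15 and 24. With a length of at least 750 kb the same counts were 52 and 43, 16 and 62, 72, 79 and 54, and 46 and 59. With at least 400 kb those that moved by over 1.5 times were 193 for rapamycin in total RNA, 70 and 245 in the IP, 299, 312 and 227 for IP minus total RNA, and 165 and 255 for the interactions. The 44 calls of CDK12 siRNA in the IP became 29 without scaling, 11 with the compared groups only and 26 with a mean of at least 0.02 FPKM, an alternative chosen after seeing the data. These alternatives test fewer or more genes by construction, except the change of scaling and of groups, for which the cause was not tested.

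With 1 library left out the calls ranged from 88 to 139 for CDK12 siRNA and from 65 to 138 for rapamycin in total RNA, from 26 to 62 and from 140 to 163 in the IP, from 192 to 201, 202 to 207 and 72 to 166 for IP minus total RNA, and from 77 to 130 and 147 to 175 for the interactions. As a share of all tags, members had 0.859% in CDK12 siRNA IP and 5.39%, 5.90% and 3.16% in total RNA of control, CDK12 siRNA and rapamycin cells. Members with under 10% overlapping signal had 0.565% and 0.550% in control and CDK12 siRNA IP and 5.51%, 5.95% and 2.92% in total RNA. Without DLG2, chosen after seeing the data, the shares were 0.872% and 0.831% in the IP and 5.12% and 5.95% in total RNA of control and CDK12 siRNA cells.

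The labels number replicates without saying that numbers pair them, and same-numbered deviations correlated from −0.198 to 0.519. With the replicate number as a block the calls were 129 and 128 in total RNA, 58 and 159 in the IP, 195, 205 and 152 for IP minus total RNA, and 118 and 161 for the interactions. Rounding to 0.001 FPKM limits members of low level.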
